A study of Nicotiana tabacum with 6 samples.

Results

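GDSL lipases and esterases were followed in leaf RNA of tobacco (Nicotiana tabacum), in the flue-cured line GDH64 and in MuGDH64, an aphid-resistant line bred from it after cobalt-60 gamma irradiation. The family was taken as every gene model of the deposited table whose description holds the word GDSL, which gave 220 of 69500 rows, and 77 of these had at least 1 FPKM in at least 3 of the 6 libraries. FPKM counts the sequenced fragments of a gene for its length and for the size of the library, so that levels of different genes can be compared. Each line had 3 leaf libraries, and both lines were field-grown. The leaf material was pooled from several plants of a plot, and no label ties a library to a sampling date, season or plot. No treatment separates the groups: they differ by line. MuGDH64 is 1 irradiated line, so the NtCYC mutation named in the series title and any other change in that line cannot be told apart.

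GDSL enzymes are hydrolases named for a short motif around the catalytic serine, and they belong to the wider SGNH hydrolase superfamily. They cut or form ester bonds, and plant genomes hold large families of them. In tomato a member links hydroxy fatty acids into cutin, the polyester of the leaf surface. In Arabidopsis a secreted member acts in defence against fungi. In pyrethrum a GDSL enzyme joins the acid and the alcohol of the insecticidal pyrethrins. Other plant members remove acetyl groups from cell wall polysaccharides. The deposited descriptions give domain names only, so none of the tobacco gene models below could be assigned to one of these roles.

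The libraries summed to 728572 to 756316 FPKM in GDH64 and 634425 to 719776 in MuGDH64, with the 3rd MuGDH64 library lowest. The depth in reads is unknown. Leaf transcripts were abundant: the 76 rows for chlorophyll a/b binding proteins summed to 7351 to 8055 FPKM in GDH64 and 6615 to 7392 in MuGDH64. The small chain of Rubisco summed to 6579 to 7665 and 7448 to 7618 FPKM. Of the domain families more typical of other organs, oleosins summed to 18.08 to 28.01 FPKM in GDH64 and 15.05 to 17.67 in MuGDH64. The 11-S seed storage proteins summed to 21.42 to 24.89 and 20.59 to 23.43 FPKM. Pollen allergen domains, which expansins share, summed to 437.2 to 503 and 420.9 to 464.6 FPKM, and pollen Ole e 1 domains to 466 to 516.1 and 415.6 to 444.2 FPKM. No row described a Casparian strip protein. The families used as epidermal markers were lower in every MuGDH64 library. FAE1-type ketoacyl synthases and chalcone synthase relatives, 47 rows, summed to 351.1 to 382.2 FPKM in GDH64 and 202.1 to 241.8 in MuGDH64. Homeobox proteins with a START domain, 36 rows, summed to 91.54 to 105.9 and 61.78 to 73.43 FPKM. Their part in the GDSL results was not tested, and in whole leaf a smaller share of epidermal cells and less RNA per cell cannot be told apart.

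The family was thinly expressed apart from 1 gene. Nitab4.5_0000202g0020 had 514.62, 484.38 and 521.95 FPKM in GDH64 against 523.23, 509.28 and 432.61 FPKM in MuGDH64, rank 124 among all rows by mean level. It held 44.1% to 47.5% of the summed FPKM of the 77 members in the GDH64 libraries and 50.6% to 51.6% in the MuGDH64 libraries. Its lines overlapped, and its log2 difference, taken relative to the median of all genes as explained below, was 0.12 (95% interval -0.10 to 0.34, limma adjusted p = 0.701). The next member, Nitab4.5_0010884g0030, had 55.58, 55.99 and 59.75 FPKM in GDH64. Of the 77 members 18 had a mean over all 6 libraries between 10 and 100 FPKM, and 58 a mean under 10 FPKM. The median member had a mean of 4.67 FPKM, against 6.53 FPKM for all 32340 genes that passed the same filter.

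The other 143 GDSL rows did not pass the filter, and 138 of them were under 1 FPKM in all 6 libraries. Of the 143 rows 81 were listed at 0 in all 6 libraries, 36.8% of the 220 rows against 33.4% of all rows in the table. A further 62 were above 0 in some library. Of those 4 reached 1 FPKM in 1 library and 1 in 2 libraries. Just outside the filter lay Nitab4.5_0001928g0030, with 0.73, 1.73 and 1.35 FPKM in GDH64 and 0.54, 0.53 and 0.51 FPKM in MuGDH64. Next to it were Nitab4.5_0006545g0040, at 1.11, 0.67 and 0.91 FPKM against 0.68, 0.83 and 0.65 FPKM, and Nitab4.5_0003310g0020, at 0.78, 0.53 and 0.64 FPKM against 1.06, 0.5 and 0.86 FPKM. Just inside lay Nitab4.5_0001645g0010, at 1.19, 1.08 and 0.62 FPKM in GDH64 and 1.59, 0.84 and 0.23 FPKM in MuGDH64. Also inside were Nitab4.5_0009274g0010, with 1.09, 0.91 and 1.04 FPKM against 1.25, 0.71 and 0.57 FPKM, and Nitab4.5_0004779g0040, at 1.13, 0.69 and 1.01 FPKM against 1.34, 0.79 and 0.72 FPKM. Of the 77 members 64 had at least 1 FPKM in every library. A pair of members, Nitab4.5_0000798g0010 and Nitab4.5_0006646g0010, passed the filter through the 3 GDH64 libraries alone, and no member passed through the 3 MuGDH64 libraries alone. All 220 rows carried the SGNH hydrolase entry. The entry for the GDSL active site stood in only 6 descriptions, and none of these 6 rows passed the filter.

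The question of the comparison was which GDSL genes the irradiation-derived line expressed at another level than its parent. In MuGDH64 18 of the 77 members fell and 1 rose in a limma test on log2(FPKM + 1), at a Benjamini-Hochberg adjusted p under 0.05 across the 32340 tested genes. These 19 were 24.7% of the members, while 11.9% of all tested genes passed. The 18 include Nitab4.5_0000798g0010, which had to be high in GDH64 to enter the test. Of all tested genes 9.74% passed lower in MuGDH64 and 2.2% higher. The groups of 3 libraries did not overlap for 28 members lower and 7 higher in MuGDH64, 45.5% of the members in all. Among all tested genes 37.5% did not overlap, 31.8% lower and 5.68% higher. The median log2 difference of all tested genes was itself -0.18, and log2 differences below are given relative to it, while adjusted p values belong to the difference before that subtraction. On this relative scale the median member was at -0.12, with 45 members below the median of all genes and 32 above it.

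**Figure D1:**
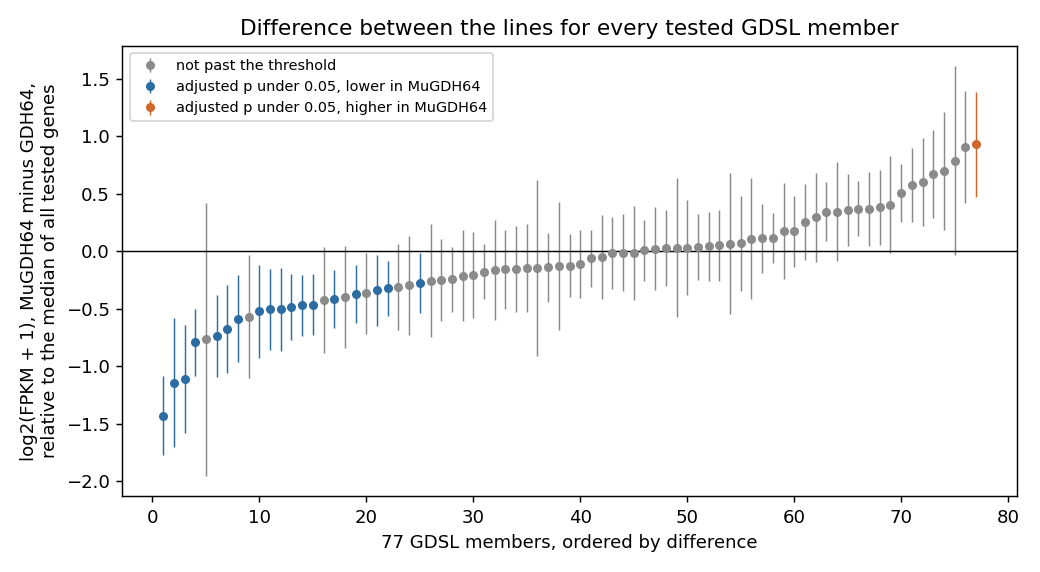
Log2(FPKM + 1) difference of MuGDH64 minus GDH64 relative to the median of all tested genes (vertical axis) for the 77 GDSL members, ordered by difference (horizontal axis). Points are estimates, bars 95% intervals from limma, and colours mark members past the adjusted threshold: 18 lower in blue and 1 higher in orange.

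The share of members that passed was above that of all tested genes at each level of expression. Under a mean of 2 FPKM 3 of 16 members passed (18.8%, against 7.2% of all tested genes at that level). Among these 3 is Nitab4.5_0000798g0010, which passed the filter through the GDH64 libraries alone. From 2 to 5 FPKM 5 of 23 passed (21.7% against 9.38%), from 5 to 10 FPKM 5 of 19 (26.3% against 12.4%), and at 10 FPKM or more 6 of 19 (31.6% against 15.5%). These are counts and were not tested. The count of 19 rested on all libraries being present: it was 9 without the 1st GDH64 library, 10 without the 2nd GDH64 library and 12 without the 3rd MuGDH64 library, where 5.66%, 6.13% and 5.8% of all tested genes passed.

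The balance between falls and rises changed with the scaling of the libraries. As deposited there were 1 higher and 18 lower members. With every library rescaled to the same sum there were 5 higher and 16 lower, beside 3.97% and 6.93% of all tested genes. After quantile normalization there were 5 higher and 11 lower (4.43% and 5.17% of all tested genes), and after median-centring 7 higher and 9 lower (6% and 4.28%). Under all 4 scalings 9 members passed lower and 1 passed higher. The share of all tested genes that did so was not counted, so these counts are not read as a trait of the members. Counted in the 9 is Nitab4.5_0000798g0010, which passed the filter through the GDH64 libraries alone.

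**Figure D2:**
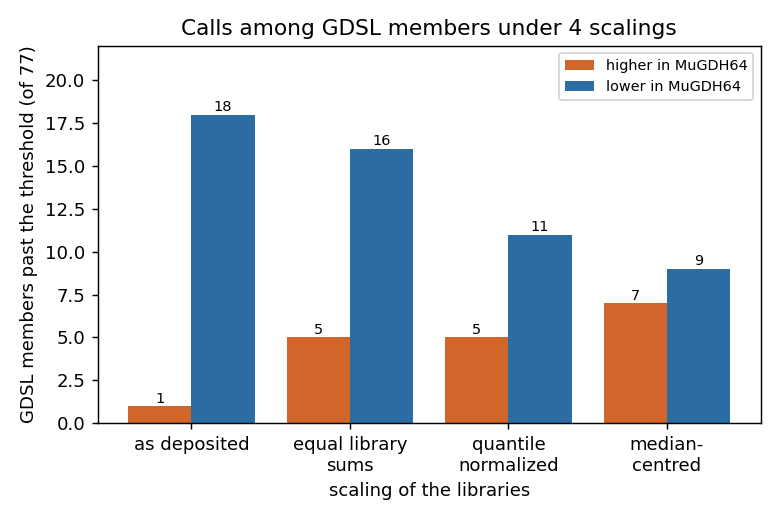
Number of the 77 GDSL members past the limma threshold (vertical axis, from 0) that were higher (orange) or lower (blue) in MuGDH64 under 4 scalings of the libraries (horizontal axis). Lower members outnumber higher ones under each scaling, by 18 to 1 as deposited and by 9 to 7 after median-centring.

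The steepest fall was that of Nitab4.5_0000798g0010, which read 2.44, 2.84 and 2.88 FPKM in GDH64 and 0.34, 0.18 and 0.15 FPKM in MuGDH64. All 3 MuGDH64 libraries lay far below the lowest GDH64 library, and the means differed 12.2-fold. On the relative log2 scale it fell by 1.43 (SE 0.15, limma adjusted p = 0.000673). It had to be high in GDH64 to enter the test, since it passed the filter only there, and it could not be tested where a GDH64 library was left out or under the stricter filter.

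A trio of moderately expressed members followed. Nitab4.5_0000057g0080 read 17.21, 24.19 and 11.34 FPKM in GDH64 and 7.17, 4.73 and 6.8 FPKM in MuGDH64, and fell by 1.14 on the relative log2 scale (SE 0.25, adjusted p = 0.0132). Nitab4.5_0004981g0050 read 10.97, 17.92 and 11.17 FPKM against 5.33, 5.51 and 3.61 FPKM and fell by 1.11 (SE 0.21, adjusted p = 0.00756). For both the 2nd GDH64 library was the highest of the 6 and the GDH64 libraries were the more scattered. Nitab4.5_0000006g0380 read 16.35, 16.48 and 19.95 FPKM against 7.38, 9.41 and 8.72 FPKM, so that its level was 2.07-fold lower in MuGDH64 with little spread in either line (adjusted p = 0.00348). These 3 members passed in the same direction in each of the 14 other settings tried, as did Nitab4.5_0006885g0020, Nitab4.5_0007926g0010 and Nitab4.5_0000376g0070.

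Falls of 1.42- to 2.39-fold made up the rest of the 18. Nitab4.5_0007926g0010 read 14.84, 16.83 and 14.92 FPKM in GDH64 and 10.7, 8.55 and 9.47 FPKM in MuGDH64 (1.62-fold, adjusted p = 0.0115). Nitab4.5_0000376g0070 read 9.69, 10.02 and 9.67 FPKM against 5.95, 6.82 and 5.75 FPKM (1.59-fold, adjusted p = 0.0129). Nitab4.5_0005085g0010 read 17.26, 19.64 and 17.17 FPKM against 12.26, 12.99 and 10.9 FPKM (1.5-fold, adjusted p = 0.0176). In each of these 3 the GDH64 libraries sat close together and above every MuGDH64 library. Nitab4.5_0005085g0010 missed the threshold without the 1st or 2nd GDH64 library or the 3rd MuGDH64 library (adjusted p = 0.0516, 0.055 and 0.0522).

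Nitab4.5_0010884g0030, the second most abundant member, read 55.58, 55.99 and 59.75 FPKM in GDH64 and 44.54, 40.52 and 35.71 FPKM in MuGDH64 (1.42-fold, adjusted p = 0.0189). It passed with equal library sums and after quantile normalization (adjusted p = 0.0167), but not after median-centring (adjusted p = 0.0646) nor without the 1st GDH64 or the 2nd MuGDH64 library (adjusted p = 0.0568 and 0.0569).

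Apart from Nitab4.5_0006885g0010 and Nitab4.5_0006885g0020, which are described below as a pair, the remaining falls depended on the scaling. Nitab4.5_0000337g0030 (2.67, 3.37 and 4.52 FPKM against 1.47, 1.44 and 1.5 FPKM, adjusted p = 0.0161) and Nitab4.5_0001375g0050 (5.54, 5.65 and 6.65 against 3.07, 3.57 and 3.51 FPKM, adjusted p = 0.0137) passed as deposited but missed the threshold after quantile normalization, at 0.053 and 0.0721, and after median-centring, at 0.0603 and 0.0705. Nitab4.5_0000748g0010 (2.6, 3.19 and 1.92 against 1.09, 1 and 1.16 FPKM, adjusted p = 0.0228) passed after quantile normalization but missed after median-centring, at 0.055. It also missed in 5 of the 6 fits without a library. The lines of these 3 members did not overlap.

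Nitab4.5_0002400g0050 read 3.1, 3.67 and 2.5 FPKM in GDH64 and 1.77, 1.39 and 1.45 FPKM in MuGDH64, and Nitab4.5_0006505g0030 read 4.93, 4.96 and 5.13 FPKM against 2.24, 3.66 and 2.47 FPKM. Nitab4.5_0006063g0020 read 8.89, 7.84 and 10.13 FPKM against 5.37, 6.51 and 3.76 FPKM. These 3 passed as deposited (adjusted p = 0.0264, 0.0273 and 0.0379) and missed after both quantile normalization and median-centring, with adjusted p up to 0.115. The same held for Nitab4.5_0003282g0010, at 19.07, 19.47 and 17.72 FPKM against 15.37, 12.88 and 10.62 FPKM (adjusted p = 0.0425). It held too for Nitab4.5_0004863g0030, at 5.87, 5.45 and 5.11 FPKM against 3.76, 3.78 and 3.64 FPKM (adjusted p = 0.0382). Each of these 5 also missed in 4 or more of the 6 fits without 1 library, with adjusted p up to 0.165 over all settings.

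**Figure D3:**
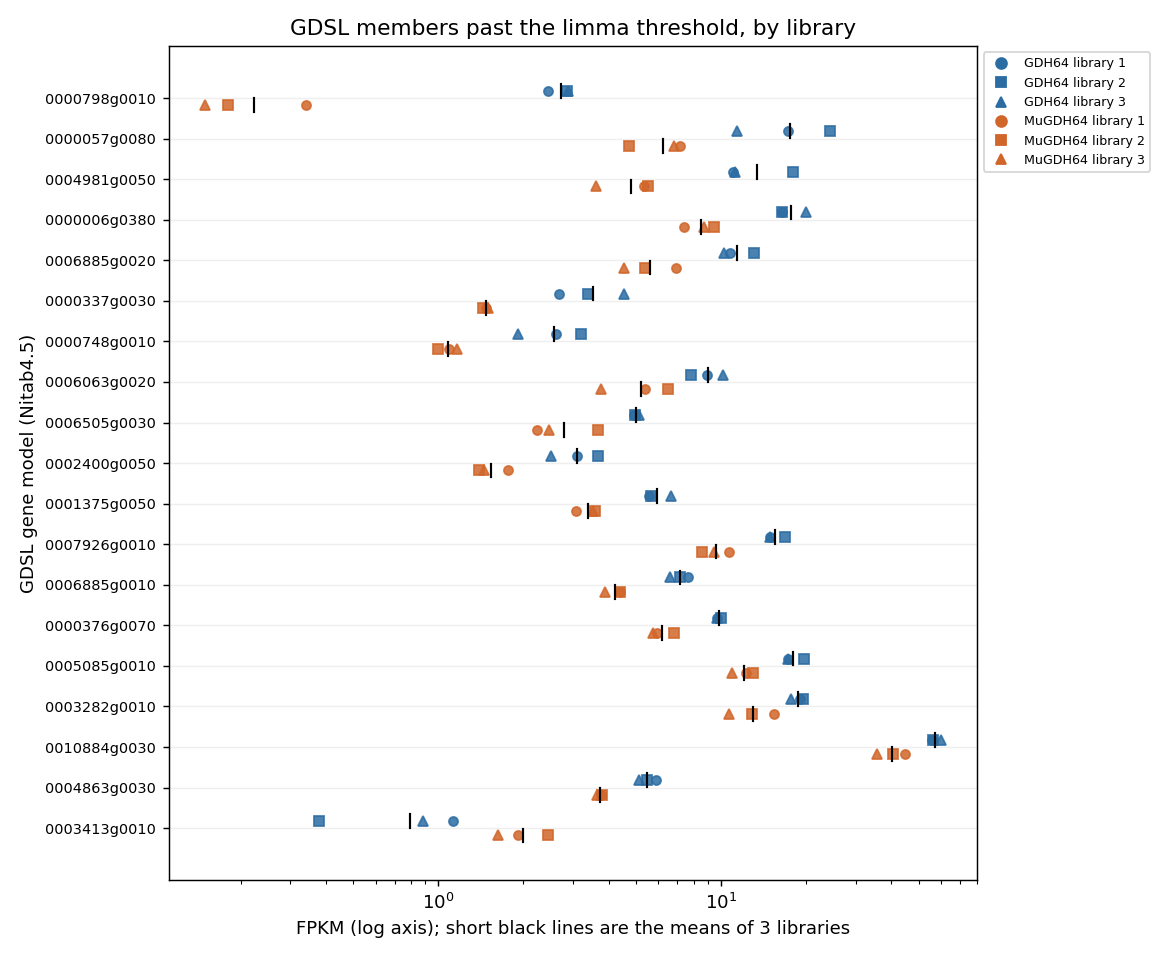
FPKM on a log axis (horizontal) in each of the 6 libraries for the 19 GDSL members past the threshold (vertical, Nitab4.5 identifiers). Blue marks are GDH64, orange marks MuGDH64, marker shapes are library numbers and short black lines means: in the 18 members that fell every orange mark lies left of every blue one, and in Nitab4.5_0003413g0010 the order is the reverse.

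Of the 18 members that fell, 9 had their highest value in the 2nd GDH64 library, 7 in the 3rd and 2 in the 1st. Of all tested genes 43.6% had their highest value in the 2nd GDH64 library, 13.3% in the 3rd and 16.9% in the 1st. The lowest value of the 18 members lay in the 3rd MuGDH64 library for 10, in the 2nd for 5 and in the 1st for 3. The 3rd MuGDH64 library also held the lowest of the 6 values for 48.1% of all 77 members and for 46.9% of all tested genes.

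The 1 member that rose, Nitab4.5_0003413g0010, is weakly expressed. It read 1.13, 0.38 and 0.88 FPKM in GDH64 and 1.92, 2.44 and 1.63 FPKM in MuGDH64, a rise of 0.93 on the relative log2 scale (SE 0.20, adjusted p = 0.044). It passed under all 4 scalings (adjusted p = 0.0256 after quantile normalization). Among other settings it missed with a pseudocount of 0.1, without the filter and without any 1 library other than the 1st GDH64 library, where adjusted p ran from 0.0666 to 0.118.

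A further 4 members passed higher under each of the 3 other scalings and not as deposited. How many of all tested genes did so was not counted. Nitab4.5_0003273g0040 read 2.06, 1.83 and 3.06 FPKM in GDH64 and 6.16, 4.21 and 3.32 FPKM in MuGDH64 (adjusted p = 0.0582 as deposited and 0.0357 after quantile normalization). Nitab4.5_0000130g0040 read 7.41, 8.76 and 9.4 FPKM against 15.12, 13.21 and 9.5 FPKM (0.0865 and 0.0264). In both the 3rd MuGDH64 library came close to the highest GDH64 library. Nitab4.5_0000007g0320 read 10.28, 9.52 and 11.72 FPKM against 12.96, 14.21 and 13.14 FPKM (adjusted p = 0.0872 and 0.0423). Nitab4.5_0000305g0220 read 5.96, 4.35 and 4.81 FPKM against 6.48, 7.9 and 6.52 FPKM (adjusted p = 0.0942 and 0.0402). In all 4 every MuGDH64 value was above every GDH64 value on the deposited scale.

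Of the 10 members with the highest mean, Nitab4.5_0010884g0030, Nitab4.5_0003282g0010 and Nitab4.5_0005085g0010 fell as deposited and the other 7 did not pass. At a mean of 10 FPKM or more 31.6% of the members passed, against 15.5% of all tested genes, as given above. Nitab4.5_0003489g0010 read 29.4, 32.43 and 36.26 FPKM in GDH64 and 28.93, 27.31 and 22.92 FPKM in MuGDH64 (adjusted p = 0.133). Nitab4.5_0002653g0020 read 19.89, 18.46 and 16.88 FPKM against 13.82, 13.69 and 15.03 FPKM (adjusted p = 0.0609). Both lay lower in each MuGDH64 library without passing. Nitab4.5_0003024g0020 read 13.44, 15.42 and 13.84 FPKM against 15.43, 16.39 and 17.45 FPKM (adjusted p = 0.237), and Nitab4.5_0004027g0010 read 13.82, 15.5 and 13.53 FPKM against 15.49, 18.16 and 14.96 FPKM (adjusted p = 0.337). These 2 passed higher after median-centring alone, with adjusted p of 0.0487 and 0.0403. Nitab4.5_0002531g0050, at 14.25, 15.59 and 16.76 FPKM against 14.33, 14.84 and 12.04 FPKM, was at 0.01 on the relative log2 scale (95% interval -0.26 to 0.28). Nitab4.5_0000335g0060, at 16.86, 17.06 and 12.59 FPKM against 12.92, 12.35 and 12.01 FPKM, was at -0.11 (95% interval -0.41 to 0.19).

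Of the 58 members that did not pass, 45 had a 95% interval of the relative log2 difference that contained the median of all genes, 11 lay above it and 2 below it. Calls were made before the median was subtracted, so members below the median passed more readily than members above it. The split of 11 to 2 is therefore not read as a rise. The relative differences of the 58 members ran from -0.76 to 0.91. The lowest was Nitab4.5_0002085g0130, where a single GDH64 library stood out: it read 1.24, 6.71 and 1.07 FPKM in GDH64 and 0, 0.82 and 1.78 FPKM in MuGDH64 (95% interval -1.95 to 0.42).

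Summed over the 77 members, the GDSL signal was 1091, 1098 and 1099 FPKM in GDH64 and 1026, 987.8 and 854.2 FPKM in MuGDH64, a ratio of 0.872. Without Nitab4.5_0000202g0020 the sums were 576, 613.6 and 577.2 FPKM against 502.5, 478.6 and 421.6 FPKM, a ratio of 0.794. The lines did not overlap in either sum. Taken as a share of the library total, all members together made up 0.1451%, 0.1452% and 0.1509% in GDH64 and 0.1425%, 0.1401% and 0.1346% in MuGDH64, a ratio of 0.946. Without Nitab4.5_0000202g0020, and with every library rescaled to the same sum, the ratio was 0.861. The sums are descriptions and carry no test.

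Some GDSL genes lie near another GDSL gene by identifier, at times with other gene models between them. The identifiers give a scaffold number and a gene number along it, and 62 of the 220 rows fell into 29 runs on 1 scaffold with identifier numbers at most 30 apart. Of these runs 26 held 2 rows, 2 held 3 and 1 held 4. The longest run, held Nitab4.5_0000137g0250 and Nitab4.5_0000137g0280, which passed the filter, and Nitab4.5_0000137g0290 and Nitab4.5_0000137g0310, which did not. The runs of 3 rows, which start at Nitab4.5_0001647g0060 and Nitab4.5_0007834g0020, had no member that passed the filter. In 9 pairs both neighbours passed the filter. The ratio of their FPKM within a library does not change when that library is multiplied by a constant, as with equal library sums. Quantile normalization and median-centring of log2(FPKM + 1) are not of that kind and can change it. This look at pairs was chosen after the values had been seen.

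The ratio differed between the lines without overlap in 4 of the 9 pairs. Among 20641 pairs of neighbouring tested genes of any kind, taken with the same limit on the identifier step and with all values above 0, it did so in 31.7%, so 4 of 9 is not read as particular to GDSL neighbours. Nitab4.5_0010884g0030 exceeded its neighbour Nitab4.5_0010884g0020 by a ratio of 5.74, 6.7 and 5.2 in the GDH64 libraries and by 3.88, 3.13 and 3.57 in the MuGDH64 libraries. The first of the 2 fell, as given above, while its neighbour read 9.69, 8.36 and 11.48 FPKM in GDH64 and 11.47, 12.94 and 10.01 FPKM in MuGDH64 and did not pass (adjusted p = 0.349). The ratio of Nitab4.5_0000130g0040 to Nitab4.5_0000130g0030 moved the other way, from 3.5, 3.08 and 5.28 to 7.2, 5.92 and 12.2. The ratio of Nitab4.5_0004863g0030 to Nitab4.5_0004863g0010 was 0.408, 0.339 and 0.365 against 0.284, 0.299 and 0.32. The ratio of Nitab4.5_0009715g0030 to Nitab4.5_0009715g0020 was 0.243, 0.351 and 0.221 against 0.202, 0.16 and 0.214. Each of these 4 gave p = 0.1 in a two-sided exact permutation test on the log2 ratio (0.225 adjusted over the 9 pairs), which is the smallest p that 3 against 3 libraries allow.

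The other 5 pairs overlapped. In the pair Nitab4.5_0006885g0010 and Nitab4.5_0006885g0020 both neighbours fell. The first read 7.63, 7.15 and 6.61 FPKM in GDH64 and 4.39, 4.38 and 3.89 FPKM in MuGDH64 (limma adjusted p = 0.012, and 0.0532 without the 1st GDH64 library). The second read 10.74, 13.09 and 10.25 FPKM against 6.91, 5.37 and 4.53 FPKM (limma adjusted p = 0.00992). Their ratio was 1.6 ± 0.215 in GDH64 and 1.32 ± 0.221 in MuGDH64 (mean ± SD, n = 3 libraries, exact permutation p = 0.3). The ratio of Nitab4.5_0000137g0280 to Nitab4.5_0000137g0250 was 0.437 ± 0.113 against 0.419 ± 0.116 (n = 3, exact permutation p = 0.9). The ratios of Nitab4.5_0001375g0050, Nitab4.5_0003227g0040 and Nitab4.5_0004154g0020 to their neighbours each gave an exact permutation p of 0.2. Tobacco is an allotetraploid, and how reads that match several near-identical copies were counted is not known.

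**Figure D4:**
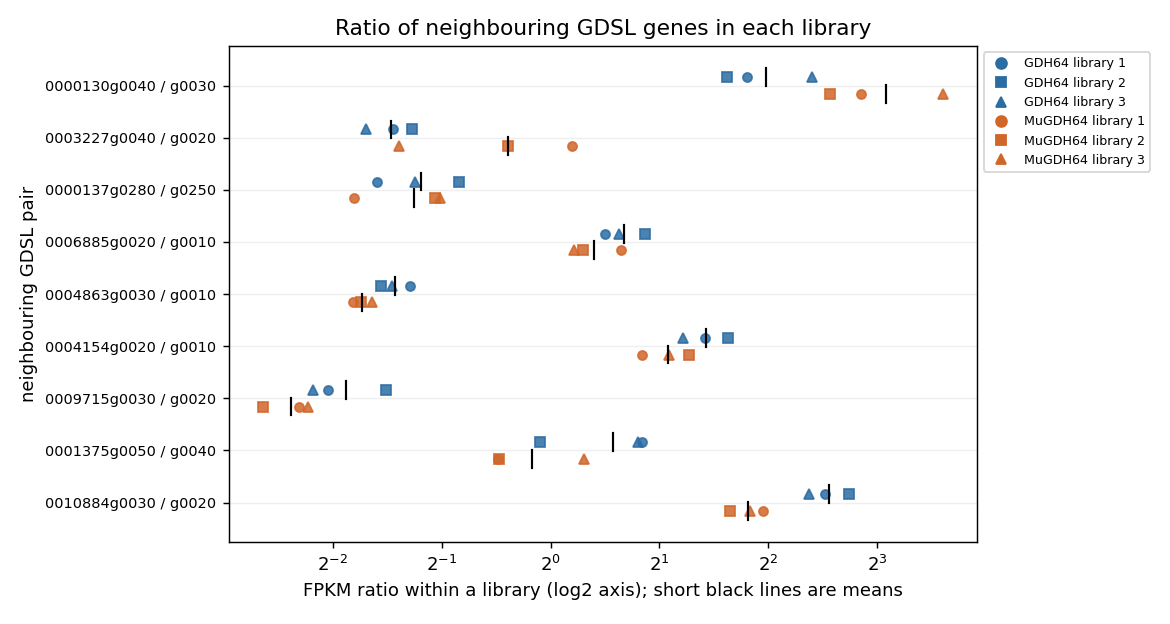
Ratio of FPKM between neighbouring GDSL genes (vertical axis, second gene over first) within each library on a log2 axis (horizontal). Blue marks are GDH64, orange marks MuGDH64, shapes are library numbers and black lines means: the lines do not overlap in 4 of 9 pairs, with the pair of Nitab4.5_0000130g0040 higher in MuGDH64 and those of Nitab4.5_0010884g0030, Nitab4.5_0004863g0030 and Nitab4.5_0009715g0030 lower.

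Genes that act with GDSL enzymes on lipids, esters and the leaf surface were counted by description, with GDSL rows left out. The percentages below stand beside the 11.9% of all tested genes that passed, 9.74% lower and 2.2% higher. After quantile normalization 5.17% of all tested genes passed lower and 4.43% higher. Among alpha/beta hydrolase fold-3 proteins, a group with carboxylesterases and gibberellin receptors, 11 of 45 tested genes fell and none rose (24.4%, 5 and 0 after quantile normalization). Nitab4.5_0001899g0090 fell from 13.1 ± 0.585 to 6.15 ± 0.892 FPKM (mean ± SD, n = 3, limma adjusted p = 0.00262). Among class 3 lipases, which cleave glycerolipids, 6 of 50 fell and 1 rose (14%, 6 and 6 after quantile normalization). Nitab4.5_0009955g0010 fell from 7.79 ± 0.236 to 2.62 ± 0.497 FPKM (limma adjusted p = 0.0012, n = 3). Patatins and phospholipases had 8 of 85 lower and 3 higher (12.9%). Of the higher ones, Nitab4.5_0002212g0020 read 0.21 ± 0.05 FPKM in GDH64 and 3.14 ± 0.52 FPKM in MuGDH64 (n = 3). Another, Nitab4.5_0000310g0220, read 0.733 ± 0.176 FPKM against 2.86 ± 0.521 FPKM (n = 3). Both passed the filter through the 3 MuGDH64 libraries alone and so had to differ. PC-esterase proteins of the trichome birefringence-like family, which acetylate wall polysaccharides, had 4 of 56 lower and 3 higher (12.5%, 0 and 3 after quantile normalization). The other SGNH hydrolases had 1 of 10 lower and 1 higher. The higher one, Nitab4.5_0000137g0230, passed the filter through the 3 MuGDH64 libraries alone and so had to differ. The single tested type B carboxylesterase did not pass, and no row matched the pectin acetylesterase pattern.

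Several families of cutin and wax formation had falls and no rises on the deposited scale, where only 2.2% of all tested genes rose. The lack of rises is near that share and is not read as particular to these families. Of the 28 ketoacyl-CoA synthase and Wax2 genes, which include builders of very-long-chain wax precursors, 14 fell (50%, 9 after quantile normalization). This list takes in the FAE1-type and chalcone synthase-type rows used above as epidermal markers, 20 of them tested. The lower marker sums and these falls are therefore not separate observations. Of the 22 glycerol acyltransferases, a family with cutin-forming enzymes, 5 fell (22.7%, 4 after quantile normalization), and Nitab4.5_0000008g0920 went from 21.2 ± 0.935 to 10.9 ± 1.41 FPKM (n = 3, limma adjusted p = 0.00296). Of the 34 ABC-2 transporters, which include exporters of cutin and wax, 8 fell (23.5%, 5 after quantile normalization). Of the 26 wax ester synthase-type genes 5 fell (19.2%, 1 after quantile normalization), and of the 61 AMP-dependent synthetases, which activate fatty and phenolic acids, 7 fell (11.5%, 4 lower and 4 higher after quantile normalization). None of the 5 tested GMC oxidoreductases passed by limma. Lipid transfer proteins moved both ways, with 12 of 56 lower and 5 higher (30.4%). Nitab4.5_0001816g0220 rose from 13.6 ± 0.723 to 59.6 ± 8.05 FPKM (n = 3, limma adjusted p = 4.18e-05). The median relative log2 difference was -0.19 for the ketoacyl-CoA synthase and Wax2 genes, -0.21 for the ABC-2 transporters, -0.24 for the GMC oxidoreductases, -0.12 for the lipid transfer proteins, -0.10 for the glycerol acyltransferases and -0.10 for the fold-3 proteins. It was -0.055 for the PC-esterases, -0.008 for the AMP-dependent synthetases, 0.01 for the wax ester synthase-type genes, 0.02 for the class 3 lipases, 0.04 for the patatins and phospholipases and 0.10 for the other SGNH hydrolases, beside -0.12 for the GDSL members.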

How the data were processed

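The deposit is a table of 69500 gene models. Its 6 library columns were tied to samples through the library names that the labels give, and the authors' mean of each line was not used. The header gives no unit. FPKM was inferred for the deposited values: they are not whole and sum to 634425 to 756316 per library, and the submitters' processing notes name TopHat2 and Cufflinks. The genome build is not given in the sources used here, nor are tool versions. None of the Nitab4.5 identifiers occurs in the RefSeq gene table, so no symbol or sequence is given.

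The log2(FPKM + 1) values of the 32340 genes that reached 1 FPKM in 3 or more libraries were fitted with limma 3.58.1 (R 4.3.3) and its mean-variance trend. Line was the only term, tests were two-sided and p was adjusted over all tested genes. Fold changes on this scale understate those of low genes. The procedure was tested on simulated data. No label says that libraries of a line came from separate plots, so p values reflect the scatter among these 6 libraries, which may be technical.

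The members, lists and tests were chosen with earlier results of these data known. The text names up to 15 rises and 15 falls among members past the threshold without overlap between the lines, the 10 members of highest mean, the longest runs of neighbours and the 3 rows on each side of the filter. Of the other 3 falls, Nitab4.5_0010884g0030 and Nitab4.5_0003282g0010 are among the members of highest mean. The last fall, Nitab4.5_0004863g0030, was added after its values were seen. So were the members outside these lists that passed only under another scaling. Related families were found by text patterns in the descriptions, 14 lists in all. Alternatives were other scalings, filters, a pseudocount of 0.1, no trend, a block for the library number, and fits that each omitted 1 library. Plots used Python 3.11.15 and matplotlib 3.10.9.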

Additional observations from a re-analysis of the deposited data

How the results depend on the processing

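No called member changed direction in any of 14 alternatives. Of 257 tests of the 19 called members in those alternatives 185 passed again and 72 did not. In every alternative that tested them 7 members passed, and how many of all tested genes did so was not counted. Of these 7 members Nitab4.5_0000798g0010 was tested in only 10 and had passed the filter through the GDH64 libraries alone. The count of members called lower was 11 after quantile normalization and 9 after median-centring, against 18 as deposited, and 8 to 15 with 1 library left out. The count called higher was 5 after quantile normalization, 5 with equal library sums and 7 after median-centring. It was 0 with a filter of 5 FPKM, 0 with a pseudocount of 0.1 and 0 to 2 with 1 library left out. Members called in either direction numbered 9 to 16 with 1 library left out, genes of the related lists 48 to 74 against 94, and all tested genes 1794 to 3141 against 3863. Without the filter 2280 genes passed in all.

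The library numbers did not pair the lines: deviations of same-numbered libraries correlated at 0.015, 0.013 and 0.051 across genes, and not every library correlated best with its own number. With the number as a replicate block 16 members were called, 0 higher and 16 lower. Of all 32340 tested genes 3991 were called in that fit, 712 higher and 3279 lower. Nitab4.5_0003413g0010 had a limma adjusted p = 0.0756 there. With no counts deposited, counting error could not be given.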

Other observations

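Beside the most strongly lowered GDSL gene, Nitab4.5_0000798g0010, lie models of an F-box family. The next one on the scaffold, Nitab4.5_0000798g0020, read 0.5, 0.52 and 0.03 FPKM in GDH64 and 1.86, 1.64 and 1.67 FPKM in MuGDH64. It passed the filter through the 3 MuGDH64 libraries alone and so had to differ. The one after it, Nitab4.5_0000798g0030, read 1.07, 1.7 and 0.87 FPKM against 0, 0.02 and 0 FPKM and was below the filter. Of the 29 models next to a called GDSL member 15 were tested. Among them 1 (this Nitab4.5_0000798g0020) was called higher and 3 lower, beside 2.2% and 9.74% of all tested genes. Of the 3 lower ones 2 were the members Nitab4.5_0006885g0010 and Nitab4.5_0006885g0020, each counted as the neighbour of the other. These counts were not tested and are not read as a trait of the neighbours.

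At the longest GDSL run, an SGNH hydrolase without the GDSL entry, Nitab4.5_0000137g0230, read 0.31, 0.73 and 0.64 FPKM in GDH64 and 1.98, 3.04 and 3.12 FPKM in MuGDH64. It too passed the filter through the 3 MuGDH64 libraries alone. Its GDSL neighbours Nitab4.5_0000137g0250 (7.33, 6.72 and 8.1 against 6.69, 5.38 and 5.18 FPKM) and Nitab4.5_0000137g0280 (2.43, 3.74 and 3.43 against 1.91, 2.57 and 2.56 FPKM) did not pass.

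The MuGDH64 libraries were widely scattered for Nitab4.5_0003227g0040, at 8.97, 5.27 and 1.99 FPKM, while GDH64 held it at 2.83, 2.91 and 2.51 FPKM. In the fit without the 3rd MuGDH64 library it was called higher.

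Without the filter on low values 2 GDSL rows below it were called: Nitab4.5_0008220g0010, at 0.06, 0.13 and 0 FPKM in GDH64 and 1.11, 0.81 and 0.53 FPKM in MuGDH64, and Nitab4.5_0010979g0010, at 0.67, 1.04 and 0.93 against 0.22, 0.26 and 0.23 FPKM. In that fit 14 of 139 GDSL rows were called (10.1%), beside 2280 genes in all. These 2 rows are not read as a trait of the family.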
